A study of Mus musculus with 4 samples.

Results

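The CXC chemokines are small secreted proteins that guide white blood cells. Here 9 of their genes were followed among 24235 genes: Cxcl1, Cxcl2, Cxcl3, Cxcl5, Cxcl9, Cxcl10, Cxcl11, Cxcl14 and Cxcl16. The rule takes them by name and uses no measured value, although the set was drawn up with earlier results of these data known. They were measured by mRNA sequencing in macrophages that M-CSF (macrophage colony-stimulating factor) had induced from bone marrow. The mice were C57BL/6 and 7 weeks old. There were 4 libraries: wild-type (WT) cells and cells labelled Sema6D-/- (a knockout of the membrane semaphorin Sema6D, by the label), each without and with LPS. LPS, the bacterial lipopolysaccharide that activates macrophages through Tlr4, was given at 100 ng/ml for 4 h. The protocol text of all 4 samples names LPS, and "non" in 2 titles was read as not stimulated. With 1 library in each group, no difference could be set against a spread between replicates, and no test between groups was possible. In such bulk RNA, fewer cells of a kind and less RNA per cell cannot be told apart. The labels give neither the number of mice nor the part of Sema6d that was deleted.

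The members fall into groups by the cells they attract. Cxcl1, Cxcl2, Cxcl3 and Cxcl5 carry a Glu-Leu-Arg motif before their first cysteines, bind Cxcr2 and attract neutrophils, and in macrophages the first 3 are classical NF-kB targets. Cxcl9, Cxcl10 and Cxcl11 lack that motif, are induced by interferons, and attract activated T and NK cells through Cxcr3. Cxcl16 is made as a transmembrane protein that binds oxidised lipoprotein and, once shed, attracts Cxcr6-bearing cells, while Cxcl14 is a constitutive chemokine of skin and other epithelia. In the RefSeq table of GRCm38.p6 the neutrophil-attracting members lie in 1 stretch of chromosome 5 (Cxcl1 is next to Cxcl2, and Cxcl3 and Cxcl5 lie among Pf4, Ppbp and Cxcl15). Cxcl9, Cxcl10 and Cxcl11 lie further along the same chromosome, where Cxcl10 is next to Cxcl11 and Cxcl9 is separated from them by Art3. Cxcl14 is on chromosome 13 and Cxcl16 on chromosome 11.

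Promoters of 5 members that were higher with LPS are shown so that the motifs they hold, and do not hold, can be read. RefSeq promoters (GRCm38.p6) were found for 6 of the 9 members, with none for Cxcl5, Cxcl11 or Cxcl16. They were searched over 250 bases before the start, on both strands, for 3 motifs. These were an NF-kB motif (GGG, any 3 bases, then TTCC), an interferon-stimulated response element or ISRE (GAAA, any 2 bases, then GAAA) and an AP-1 motif (TGANTCA, where N is any base). They occurred in 4.65%, 2.98% and 6.75% of 32851 such promoters. Below, capitals mark all matches, and the longer NF-kB run holds 2 overlapping matches, 1 on each strand. The first 3 lines give 120 bases before the start and the last 2 give 250.
Cxcl1, chr5:90891125-90891244, plus strand: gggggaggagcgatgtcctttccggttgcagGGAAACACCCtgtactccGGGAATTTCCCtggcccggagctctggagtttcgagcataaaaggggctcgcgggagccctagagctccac
Cxcl2, chr5:90903779-90903898, plus strand: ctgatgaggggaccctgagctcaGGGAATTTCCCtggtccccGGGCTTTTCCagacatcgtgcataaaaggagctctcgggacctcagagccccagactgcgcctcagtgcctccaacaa
Cxcl3, chr5:90785981-90786100, plus strand: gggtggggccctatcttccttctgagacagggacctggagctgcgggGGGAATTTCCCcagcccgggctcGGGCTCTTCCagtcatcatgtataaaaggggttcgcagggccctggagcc
Cxcl10, chr5:92348890-92349139, minus strand: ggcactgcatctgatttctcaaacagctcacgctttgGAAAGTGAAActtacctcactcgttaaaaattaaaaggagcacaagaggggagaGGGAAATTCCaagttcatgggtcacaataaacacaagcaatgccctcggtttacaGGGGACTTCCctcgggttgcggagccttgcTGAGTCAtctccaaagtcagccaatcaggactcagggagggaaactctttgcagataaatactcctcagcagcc
Cxcl9, chr5:92328080-92328329, minus strand: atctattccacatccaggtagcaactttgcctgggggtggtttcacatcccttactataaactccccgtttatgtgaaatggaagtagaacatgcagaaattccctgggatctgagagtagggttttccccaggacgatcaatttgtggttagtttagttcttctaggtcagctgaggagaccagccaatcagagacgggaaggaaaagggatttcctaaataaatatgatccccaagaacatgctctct

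Cxcl1, Cxcl2 and Cxcl3 shared the run GGGAATTTCCC, which was present in 14 of the 32851 promoters (0.0426%), and each held a further NF-kB match close beside it. Cxcl10 held 2 other NF-kB matches, an ISRE and an AP-1 match. The Cxcl9 window held none of these letters, and the Cxcl14 window held 1 ISRE match. A match describes the sequence and does not show that a factor bound there.

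The libraries had the character of macrophages. Adgre1 (F4/80) measured 715 to 1118 FPKM and Csf1r 644 to 1049 FPKM, where FPKM (fragments per kilobase, scaled for depth) corrects a count for transcript length and depth. Of 8 macrophage genes, 2 differed at least 2-fold between the genotype labels with LPS and 0 without. Of all genes 3.09% were higher and 3.18% lower under the Sema6D-/- label with LPS, and 2.51% and 2.19% without. With LPS, Mertk measured 14.9 FPKM for WT against 61.3 under the Sema6D-/- label, and Itgam 538 against 265. Lymphocyte, stromal and dendritic lists were low, with summed levels of at most 7.97 FPKM. The epithelial and endothelial list summed to 7.46 to 48.8 FPKM, most of it Kdr, while Epcam, Krt8 and Krt18 were at or near 0. Neutrophil genes were present and differed with the genotype label: without and with LPS the 10 genes summed to 835 and 1278 FPKM for WT, against 237 and 365 FPKM under the Sema6D-/- label, with Ly6g at most 0.450 FPKM in all 4. Sema6d was low throughout and was not lower under its knockout label (0.304 and 0.219 FPKM for WT, against 0.563 and 0.592). Whether labels were exchanged, or the deletion leaves a transcript, was not tested, and an exchange would turn the direction of every genotype ratio below. Xist (22.3 and 21.4 against 0.0333 and 0.0306 FPKM) and Y-linked Eif2s3y (at most 0.0207 against 33.5 and 50.4 FPKM) also separated the labels, so the genotype label and the sex of the mice cannot be told apart. The part of these differences in the results below was not tested.

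Without LPS, WT macrophages mainly held Cxcl16 and little of the inducible chemokines. Cxcl16 was highest at 82.0 FPKM (63.5% of the summed level of the 9 members), then Cxcl10 at 30.5, Cxcl2 at 10.4, Cxcl14 at 3.35 and Cxcl1 at 1.74 FPKM. Cxcl3 (0.834), Cxcl9 (0.168), Cxcl11 (0.115) and Cxcl5 (0.0223) were below 1 FPKM. Levels are per transcript length, so they can be set side by side between genes. Low values rest on few fragments: an estimated 21 for Cxcl3, 14 for Cxcl9, 5 for Cxcl11 and 1 for Cxcl5.

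**Figure D1:**
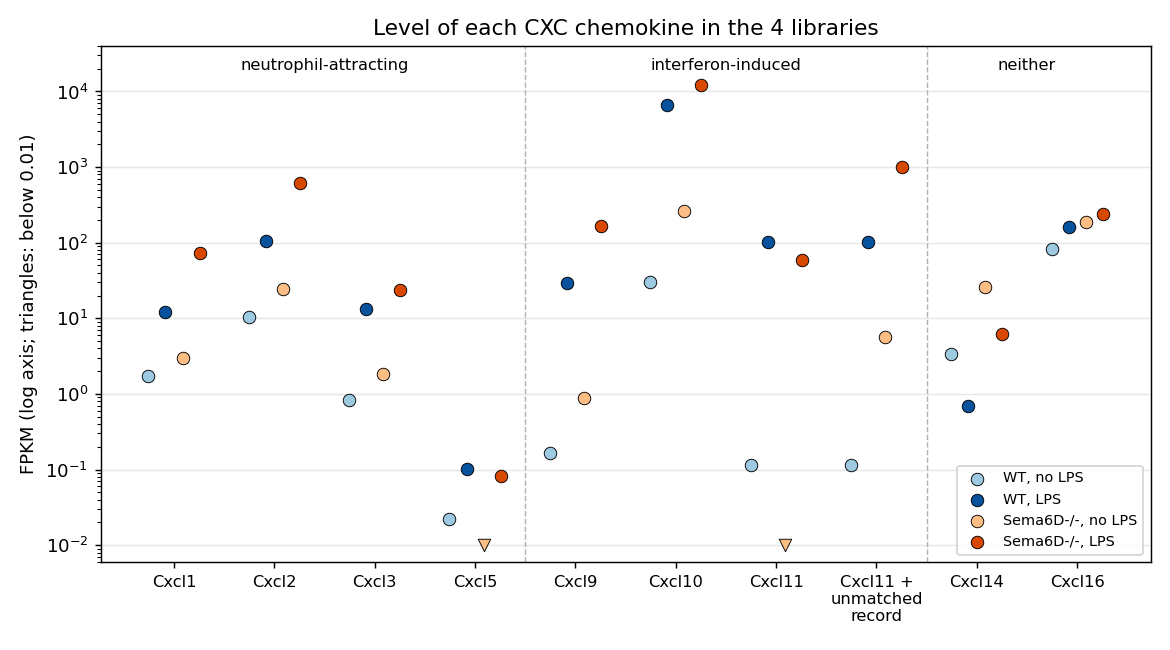
Level of each member in FPKM (log axis) in the 4 libraries, 1 point per library, with Cxcl11 drawn as matched and with an older RefSeq record added. In the LPS libraries Cxcl10 stands highest at 6696 and 12295 FPKM, Cxcl5 stays at or below 0.102 FPKM, and Cxcl14 is lower with LPS than without.

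With LPS the neutrophil chemokines of WT cells were about an order of magnitude higher. Cxcl1 measured 12.3 FPKM with LPS, a log2 ratio without any added value of 2.82 [2.32, 3.35]. Square brackets hold 95% exact intervals for counting error only, computed from estimated fragments. Cxcl2 measured 105 FPKM (3.33 [3.15, 3.51]) and Cxcl3 13.2 FPKM (3.99 [3.32, 4.69]). The 3 genes thus differed less from one another in response than in level, where Cxcl2 was 8.52 times Cxcl1 in the WT library with LPS. Cxcl5, a neutrophil chemokine made mostly by epithelial and stromal cells, was at 3 fragments or fewer in every library (0.0223, 0.102, 0 and 0.0828 FPKM), so it was not detectable at this depth.

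The interferon-induced members had larger ratios than these in WT. Cxcl10 measured 6696 FPKM, 220-fold its level without LPS (log2 ratio 7.78 [7.68, 7.88]). Cxcl9 measured 29.3 FPKM (7.45 [6.68, 8.31]) and Cxcl11 101 FPKM (9.78 [8.52, 11.37]). Cxcl10 alone made up 94.1% of the summed level of the members in that library. The summed interferon-induced level was 2.37 times that of the neutrophil-attracting members without LPS and 52.5 times with LPS.

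The remaining members had smaller or opposite ratios. Cxcl16 measured 159 FPKM with LPS against 82.0 without, a log2 ratio of 0.96 [0.91, 1.01]. With all libraries scaled to equal sums, and 1 FPKM added to each value, the ratio was 0.42. The interval does not cover that choice of scaling. Cxcl14 was lower with LPS, at 0.701 FPKM (23 fragments) against 3.35 (168 fragments), a log2 ratio of -2.26 [-2.95, -1.62].

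For counts over many genes a ratio was taken as log2((FPKM + 1)/(FPKM + 1)), a gene had to reach 1 FPKM in a library compared, and 2-fold was the size rule. The added 1 understates ratios of low genes, and so can enlarge or shrink a difference between ratios. By that rule 6 members were higher and 1 lower with LPS in WT (8 passed the filter, all except Cxcl5), against 10.7% of 10375 genes higher and 4.85% lower. With all libraries scaled to equal sums those shares of all genes were 6.77% and 14.3%, and the counts of members were again 6 and 1. The median over the members that passed was 3.08, with 2.96 for the neutrophil-attracting and 6.52 for the interferon-induced members, while that of all genes tested was 0.0. The choice of genes known to respond to LPS sets these counts, which are a description.

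Under the Sema6D-/- label the neutrophil chemokines were again higher with LPS, and Cxcl1 and Cxcl2 had larger ratios than in WT. Cxcl2 measured 24.5 FPKM without LPS and 625 with it, a log2 ratio of 4.67 [4.54, 4.80]. Cxcl1 measured 2.99 and 73.3 FPKM (4.62 [4.19, 5.05]). Cxcl3 measured 1.86 and 23.8 FPKM (3.68 [3.14, 4.21]), so that Cxcl2, 7.90 times Cxcl3 in WT with LPS, was 26.2 times Cxcl3 here. The transcripts of Cxcl2 and Cxcl3 shared 61 stretches of 50 bases (5.75% and 6.31% of their positions), where fragments could be split between them.

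Cxcl10 was higher without LPS under the Sema6D-/- label than in WT and had a smaller LPS ratio. It measured 266.6 FPKM without LPS and 12295 with LPS, a log2 ratio of 5.53 [5.49, 5.57]. Cxcl9 measured 0.891 and 166 FPKM (7.54 [7.15, 7.95]). Cxcl16 measured 189.7 and 243 FPKM (0.36 [0.32, 0.40]), a ratio that became -0.40 with the added 1 with equal library sums. Cxcl14 was again lower with LPS, at 6.26 against 25.6 FPKM (-2.03 [-2.28, -1.79]).

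By the size rule 6 members were higher and 1 lower with LPS in the libraries labelled Sema6D-/-, against 14.0% and 8.81% of 10398 genes (7.09% and 28.6% with equal library sums). The median log2 ratio, with the added 1, was 4.42 over the members that passed, 4.22 for the neutrophil-attracting and 5.93 for the interferon-induced members, and 0.01 for all genes. The value of 5.93 is that of Cxcl11, whose level without LPS was under 3 fragments. With Cxcl11 set to 3 fragments there the median was 5.79.

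Under the Sema6D-/- label most of the Cxcl11 signal was assigned to a further transcript record, which held none in WT. C57BL/6 mice are known to carry a frameshift in Cxcl11, and the RefSeq table lists the gene of the reference strain as a transcribed pseudogene (NR_038116), the record that gave the Cxcl11 values so far. Without and with LPS it measured 0.115 and 101 FPKM for WT. Under the Sema6D-/- label it measured 0.00223 and 59.9 FPKM, where the level with LPS was at least 615-fold higher than a floor of 3 fragments. The deposited tables also hold NM_019494, known as the record of the intact Cxcl11 mRNA, which no reference table used here names, so its identity rests on that background knowledge. NM_019494 was listed at 0 in both WT libraries and at 5.61 and 933 FPKM in those labelled Sema6D-/-.

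**Figure D2:**
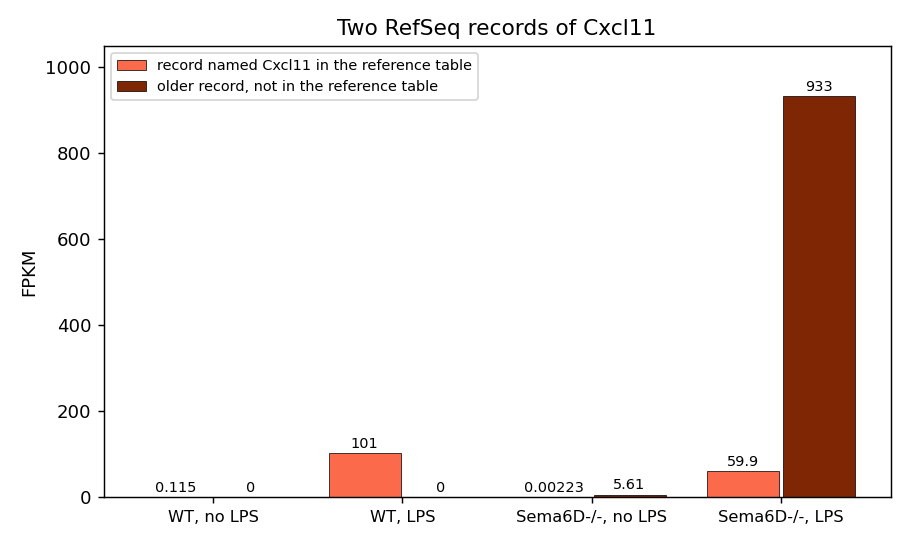
FPKM (linear axis) of the RefSeq records of Cxcl11 in each library. WT signal lies in the record named in the reference table (101 FPKM with LPS), while the library labelled Sema6D-/- with LPS holds 59.9 FPKM there and 933 FPKM in the older record.

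With both records summed, Cxcl11 measured 5.62 FPKM without LPS and 993 with LPS in the libraries labelled Sema6D-/-, of which the older record made up 99.96% and 94.0%. The direction of the genotype difference depended on this choice. Between the LPS libraries, Sema6D-/- label over WT, the log2 ratio was -0.75 with the record named in the table and 3.28 with both, each with the added 1. All 4 libraries are labelled C57BL/6, and why the older record held signal only under the Sema6D-/- label was not tested. The median for LPS over the interferon-induced members of the libraries labelled Sema6D-/- was 6.47 with both records.

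Set against WT without LPS, the library labelled Sema6D-/- held higher levels of most members. Cxcl10 measured 266.6 against 30.5 FPKM (8.74-fold higher, log2 ratio 3.13 [3.02, 3.23]). Cxcl14 was 7.65-fold higher, at 25.6 against 3.35 FPKM (2.94 [2.69, 3.18]). Cxcl2 was 2.36-fold higher (1.24 [1.03, 1.46]) and Cxcl16 2.31-fold (1.21 [1.17, 1.26]). Cxcl1 at 2.99 against 1.74 FPKM (0.79 [0.16, 1.43]) and Cxcl3 at 1.86 against 0.834 (1.16 [0.34, 2.02]) rested on 21 to 50 fragments and had wide intervals. Cxcl9, under 1 FPKM in both libraries, had 14 and 54 fragments (2.41 [1.54, 3.37]).

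By the size rule 4 of 6 members that passed were higher and 0 lower, against 2.51% and 2.19% of 10322 genes. The members were Cxcl2, Cxcl10, Cxcl14 and Cxcl16, joined by Cxcl11 when both its records were summed (2.57). The median of the 6 was 1.18, and that of all genes tested 0.04. Cxcl10 took 23.6% of the summed level of members in WT without LPS and 52.0% in the library labelled Sema6D-/-, where it and not Cxcl16 was the highest.

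With LPS, Cxcl1, Cxcl2, Cxcl9 and Cxcl14 were the members at least 2-fold higher under the Sema6D-/- label. Cxcl2 (625 against 105 FPKM, 2.58 [2.51, 2.65]) and Cxcl1 (73.3 against 12.3 FPKM, 2.58 [2.35, 2.82]) were both about 6-fold higher, and Cxcl9 was 5.68-fold higher (166 against 29.3 FPKM, 2.51 [2.43, 2.59]). Cxcl14 was 8.93-fold higher (3.16 [2.52, 3.85]), though at 6.26 and 0.701 FPKM. Cxcl3 (1.80-fold, 0.85 [0.59, 1.11]), Cxcl10 (1.84-fold, 0.88 [0.87, 0.89]) and Cxcl16 (1.53-fold, 0.61 [0.57, 0.65]) lay below 2-fold.

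By the size rule 4 of the 8 members that passed were higher with LPS in the library labelled Sema6D-/- and 0 lower, against 3.09% and 3.18% of 10078 genes (1.91% and 4.16% with equal library sums, with the counts of members again 4 and 0). The median was 1.49 over those members, and 2.49 for the neutrophil-attracting and 0.88 for the interferon-induced ones, against 0.04 for all genes. With both records of Cxcl11 summed the last group had 2 of 3 higher and a median of 2.47, so the contrast between the groups in this comparison rested on Cxcl11. In the same libraries neutrophil genes had the opposite direction, with 6 of 9 measured genes at least 2-fold lower, among them S100a8 (-1.91), S100a9 (-1.88) and Ngp (-1.80). Their part in the chemokine values was not tested.

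**Figure D3:**
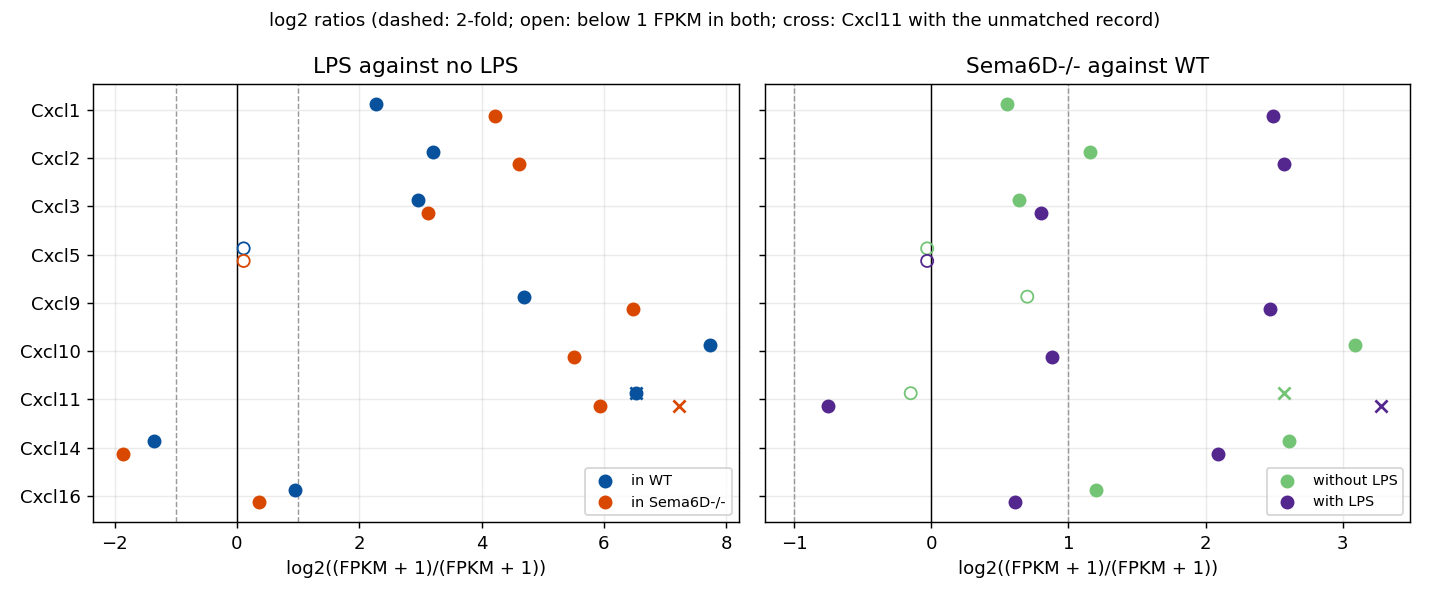
log2((FPKM + 1)/(FPKM + 1)) of each member for LPS (left, in each genotype label) and for genotype label (right, without and with LPS), with a dashed line at 2-fold, open circles for members below 1 FPKM and crosses for Cxcl11 with both records. Cxcl1 and Cxcl2 have the larger LPS ratios under the Sema6D-/- label (4.22 and 4.62 against 2.28 and 3.21) and Cxcl10 the smaller (5.52 against 7.73).

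The difference of the LPS ratios (libraries labelled Sema6D-/- minus WT) separated members within the groups as well as between them. All 4 libraries enter it, and it shares them with every comparison above. Without an added value it was 1.79 [1.15, 2.44] for Cxcl1 and 1.34 [1.12, 1.56] for Cxcl2 (here with normal-approximation intervals on the log scale, again for counting error only). It was -0.31 [-1.13, 0.51] for Cxcl3, a neutrophil-attracting member whose ratios could not be told apart at this depth. Of the interferon-induced members, Cxcl10 had -2.25 [-2.36, -2.15] and Cxcl9 0.10 [-0.76, 0.95]. With the added 1, Cxcl9 had 1.77. The gap to 0.10 comes from the added 1, which is large beside the 0.168 and 0.891 FPKM without LPS. There it took the genotype log2 ratio of Cxcl9 from 2.41 to 0.70. Cxcl16 had -0.60 [-0.66, -0.54], Cxcl14 0.22 [-0.45, 0.90], and Cxcl11, with both records, -2.31, on 5 fragments in WT without LPS, or 0.71 with the added 1.

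With the added 1, 3 members (Cxcl1, Cxcl2 and Cxcl9) lay past 2-fold upward in this difference and 1 (Cxcl10) downward, against 1.83% and 1.25% of 10680 genes (1.14% and 2.05% with equal library sums, with 3 and 1 members). The median over the 8 members was -0.18, and 0.44 with both records of Cxcl11, against -0.01 for all genes. For the neutrophil-attracting members it was 1.41. For the interferon-induced members it was -0.59 (-0.72 with Cxcl11 at 3 fragments) or 0.71 with both records. As a mix of levels, the interferon-induced sum was 9.10 times the neutrophil-attracting sum without LPS and 17.3 times with LPS in the libraries labelled Sema6D-/- (9.29 and 18.6 with both records), against 2.37 and 52.5 in WT. These sums are mostly Cxcl10 (12295 of 12521 FPKM with LPS under the Sema6D-/- label and 6696 of 6826 in WT), so they describe Cxcl10 and not the group.

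**Figure D4:**
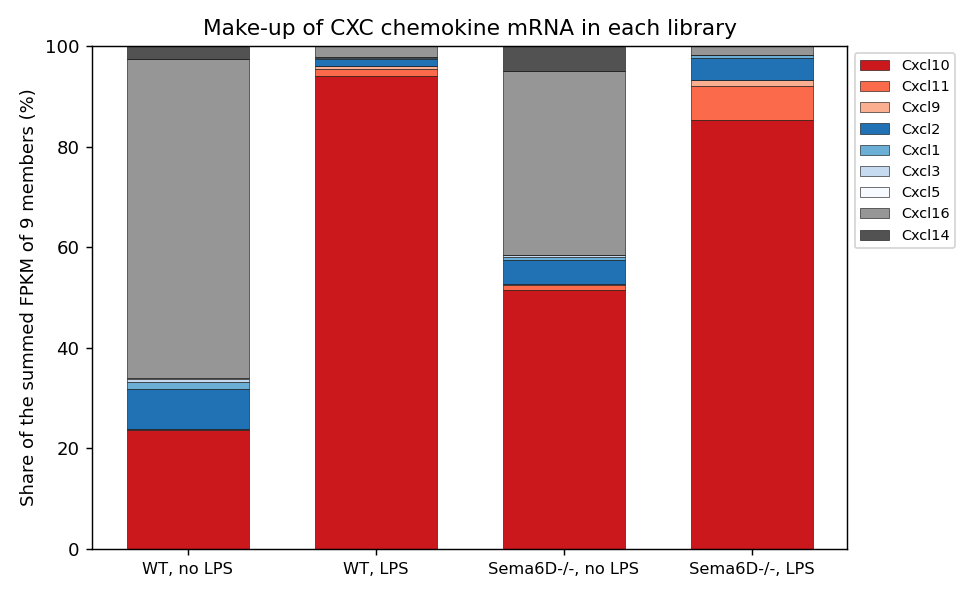
Share (%) of each member in the summed FPKM of the 9 members, 1 bar per library, with both records of Cxcl11. Cxcl16 leads in WT without LPS (63.5%), and Cxcl10 leads in the other libraries (94.1% in WT with LPS, 51.5% and 85.2% in those labelled Sema6D-/-).

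The receptors of these chemokines were mostly low in the macrophages. Of 7 receptors 3 reached 1 FPKM. Cxcr2, the receptor of the neutrophil-attracting members, measured 0.911 to 1.62 FPKM and Cxcr3, that of the interferon-induced members, 0.984 to 1.93 FPKM. Cxcr4, which binds Cxcl12, measured 38.8 FPKM without and 5.80 with LPS for WT, and 72.7 and 2.46 FPKM under the Sema6D-/- label. Among 6 other CXC ligands, Pf4 (platelet factor 4) measured 79.5 to 104.5 FPKM and Ppbp 3.51 to 6.72, both within 2-fold in all 5 comparisons. Cxcl12, Cxcl13, Cxcl15 and Cxcl17 stayed below 1 FPKM.

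In a list of the LPS receptor and NF-kB arm, 14 of 21 genes were higher with LPS under each genotype label. Of all genes 10.7% and 14.0% were higher. In the list 0 were lower in each, against 4.85% and 8.81% of all genes. Median log2 ratios were 1.61 for WT and 1.88 for the Sema6D-/- label. The higher genes included the feedback inhibitors Tnfaip3 (3.85 and 4.74), Nfkbie (3.81 and 2.78) and Nfkbia (2.19 and 2.54), and Nfkb2, which encodes p100 (2.93 and 2.24). Cd14, Myd88 and Irak2 were higher too, while Tlr4 (0.25 and 0.37), Ly96, Irak1, Irak4, Traf6, Ikbkb and Chuk lay below 2-fold under both labels. Nfkbiz, which encodes an NF-kB cofactor, measured 51.3 and 158 FPKM for WT against 28.9 and 251 under the Sema6D-/- label. Its difference of the ratios was 1.47, the only one of this list at least 2-fold up, against 1.83% of all genes. Relb (-1.11) and Nfkbie (-1.03) were down, against 1.25% of all genes. Against WT, 4 genes of the list were higher without LPS and 3 with LPS under the Sema6D-/- label. Of all genes 2.51% and 3.09% were higher. In the list 0 were lower in each, a share near the 2.19% and 3.18% of all genes. The genes higher without LPS were Nfkbie (2.0), Relb (1.59), Nfkb2 (1.32) and Cd14 (1.13). Those with LPS were the LPS co-receptor Cd14 (1.05), Nfkbia (1.11) and Tnfaip3 (1.41).

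In the interferon arm 11 of 21 genes were higher with LPS for WT and 12 under the Sema6D-/- label (medians 1.11 and 1.31). Of all genes 10.7% and 14.0% were higher. In the list 0 were lower in each, against 4.85% and 8.81% of all genes. Ifnb1, which encodes interferon beta, measured 0.229 and 21.2 FPKM for WT against 0.394 and 37.3 under the Sema6D-/- label. The feedback inhibitor Socs1 had log2 ratios of 6.01 and 5.86, and the interferon-induced protease Usp18 4.23 and 3.64. Without LPS, 4 of the 20 genes that passed were higher under the Sema6D-/- label (2.51% of all genes), among them Irf1 (1.12), which encodes an interferon-induced transcription factor, and Usp18 (1.12). With LPS 0 of 21 were, a share near the 3.09% of all genes. Cxcl10 was likewise nearer in level between the labels with LPS than without, and the relation between these values was not tested.

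Regulators of chemokine mRNA decay were mixed. Zfp36 (tristetraprolin), which promotes decay of Cxcl1 and Cxcl2 mRNA, measured 132 and 527 FPKM for WT against 103 and 639.7 under the Sema6D-/- label. Its relatives Zfp36l1 (-2.03 and -1.57) and Zfp36l2 (-2.34 and -3.98) were lower with LPS. Zc3h12a (Regnase-1, an RNase that cuts cytokine mRNA) had ratios of 0.80 and 1.97, and a difference of 1.16. The difference for Zfp36l2 was -1.64. Of the 8 regulators 1 was thus up and 1 down in the difference, against 1.83% and 1.25% of all genes. Of the proteases that process CXC chemokines, Adam10, a sheddase of Cxcl16, measured 68.9 and 47.4 FPKM for WT against 72.4 and 44.3 under the Sema6D-/- label. Adam17, another sheddase, measured 84.6 and 151 FPKM against 156 and 231. Mmp14 had the largest ratios of that list with LPS (2.37 and 1.54). The membrane protease Dpp4, which trims Cxcl10, stayed below 1 FPKM.

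Genes with the profile most like those of Cxcl1 and Cxcl10 were ranked by Euclidean distance between centred log2(FPKM + 1) values over the 4 libraries, among 8022 genes that reached 5 FPKM in any library. For Cxcl1 these were Gm4841 (distance 0.24), Mycl (0.474), Mir762 (0.498), Malt1 (0.521) and Hcar2 (0.559), and Cxcl2 stood at rank 11 and Cxcl3 at rank 50. For Cxcl10 they were Gbp5 (0.635), Ifi205 (0.699), Cd69 (1.13), Ch25h (1.16) and Ccl5 (1.31), with Cxcl9 at rank 25. The added 1 compresses the ratios of low genes and so affects these ranks. For WT without and with LPS, Gm4841 measured 0.0368 and 2.98 FPKM and Mycl 0.0626 and 6.08. Cxcl1 measured 1.74 and 12.3 FPKM, so without the added 1 its ratio was much smaller than theirs. With 4 libraries many genes share a profile, and the ranks describe these libraries only.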

How the data were processed

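Messenger RNA of 4 libraries, 1 per group, was analysed from 1 table per library of 34487 RefSeq transcripts. The deposited values were FPKM. Cuffnorm 2.2.1 is named in the submitters' processing notes, with SAMtools 0.1.19, TopHat2 2.0.13, Bowtie2 2.2.3 and the build mm9, and the libraries were TruSeq stranded mRNA per the labels' protocols. Options, annotation version and the scaling between libraries are not given in the sources used here. Transcripts were named from the RefSeq table of GRCm38.p6 (34159) or GENCODE vM21 (191), and 137 without a name were left out. They were summed per symbol to 24235 genes. Each member had 1 named transcript. Promoter coordinates are GRCm38.p6 and were not converted to mm9.

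Fragments were estimated from the steps of low FPKM values, with lengths of the paired GENCODE transcripts. The depth and the length subtracted were chosen so that these values came as near to whole numbers as possible. Values of 0.5 to 6.5 fragments were then whole within 0.1 for 73.0 to 73.8% of them. A depth that was not fitted would give 20%, which is not the chance level for a fitted one. At these depths 1 FPKM stood for 16.55 to 30.9 fragments per kilobase. Intervals cover counting error at these estimates, not differences between mice or cultures or the choice of scaling. Ratios used an added 1 FPKM, a filter of 1 FPKM and a 2-fold rule, and no test was run. The depth, call and motif steps were tested on simulated data. All 9 members were named, list genes by size of ratio, and 5 nearest profiles for each of Cxcl1 and Cxcl10. Cxcl5, below the filter in every comparison, was given by its levels only. Members and lists were chosen with earlier results of these data known. Alternatives were other pseudocounts, filters, scalings and size rules and the highest transcript per gene, and the sum of both Cxcl11 records was added after the data were seen. Python 3.11.15, pandas 2.3.3, numpy 2.4.6, scipy 1.17.1 and matplotlib 3.10.9 were used. Some list genes are not reported here.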

Additional observations from a re-analysis of the deposited data

Results flagged for a closer look

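The older Cxcl11 record NM_019494, which entered none of the counts above unless stated, held signal in both libraries labelled Sema6D-/- (5.61 FPKM without LPS and 933 FPKM with LPS) and was listed at 0 in both WT libraries.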

How the results depend on the processing

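No paired analysis was possible because each group held 1 library, and no library could be left out for the same reason. Counts of members at least 2-fold apart moved by over 1.5 times under these settings: with a filter of 5 FPKM, 0 members (instead of 1) were lower with LPS in WT, since Cxcl14 no longer passed. With a 1.5-fold size rule, 7 were higher and 1 lower in the library labelled Sema6D-/- against WT with LPS (instead of 4 and 0), and 3 (instead of 1) were down in the difference of responses. No log2 ratio past 2-fold changed sign under any alternative. Below 2-fold, Cxcl16 for LPS in the libraries labelled Sema6D-/- turned from 0.36 to -0.40 with equal library sums, and the difference of responses turned for Cxcl3 (0.16 to -0.31), Cxcl11 (-0.59 to 4.94, on under 1 fragment) and Cxcl14 (-0.52 to 0.22) with nothing added. With both Cxcl11 records, Cxcl11 by genotype with LPS turned from -0.75 to 3.28 and its difference of responses to 0.71. The difference for Cxcl9 was below 2-fold with 0.1 or nothing added (0.61 and 0.10).

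Counts over all genes moved more. For LPS in WT, 1114 genes higher and 503 lower became 713 and 1502 with libraries scaled to equal sums, and 1453 and 916 in the libraries labelled Sema6D-/- became 745 and 3008. The 311 higher with LPS by genotype became 188, and the difference of responses went from 195 and 134 to 123 and 222. With 0.1 added, lower genes were 892 and 1443 for LPS, genotype without LPS gave 406 higher and 359 lower (instead of 259 and 226), genotype with LPS 492 lower (instead of 320), and the difference 294 up and 363 down. With nothing added these were 917 and 1478, 408 and 331, 488, and 245 and 373. The 1.5-fold rule gave 1793 and 1441, 2288 and 2093, 718 and 601, 1009 and 797, and 595 and 610 in the 5 comparisons. Centring on the median shifted the LPS ratios by -0.12 and -0.16, and equal sums by -0.53 and -0.76. Equal sums also shifted the genotype ratios with LPS, and the difference of responses, by -0.23. Cxcl10 by genotype with LPS then went from 0.88 to 0.65, outside its counting interval, which does not cover the choice of scaling. Depth limits Cxcl5 in every library and Cxcl9 and Cxcl11 without LPS.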
